A study of Homo sapiens with 8 samples.

Results

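The genes examined were 33 genes of cholesterol and fatty acid synthesis, chosen by their symbols as enzymes of the sterol pathway, regulators of the SREBP transcription factors, and enzymes that make and modify fatty acids. All 33 were among the 26364 gene symbols of the expression table, and all 33 were among the 14151 genes that could be tested, which had 1 TPM (a share of the transcripts of a library, corrected for gene length) or more in 2 or more libraries. They were 8 enzymes from acetoacetyl-CoA to the isoprenoid diphosphates, 11 enzymes from squalene to the late sterols, 5 genes of SREBP control and sterol transport, and 9 enzymes of fatty acid and lipid synthesis. The choice was by function, although it was made with earlier results of these data known.

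MV4-11 is a human acute myeloid leukemia (AML) cell line, labelled as carrying FLT3-ITD and MLL-AF4, and all 4 groups came from this 1 line. Control cells received DMSO, the solvent of the drugs. The other groups received tranylcypromine (TCP), an inhibitor of the histone demethylase LSD1, at 5 μM, palbociclib, an inhibitor of the kinases CDK4 and CDK6, at 0.5 μM, or both molecules, which is called the combination here. Each group had 2 RNA-seq libraries, numbered as replicates 1 and 2. The labels give 4 days of treatment, whereas the methods of the study give the CDK6 inhibitor alone for 1 day and then both molecules for 3 days, and the length of TCP alone is not settled by these sources. The methods also describe growth of the AML lines on HS-5 human stromal cells, which the labels of these libraries do not mention. Nothing in the labels says that the replicates were separate cultures, so the p-values measure the spread between these libraries, which may be technical.

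Cells make cholesterol from acetyl-CoA through mevalonate, the isoprenoid diphosphates and squalene, and the isoprenoids also feed the prenylation of proteins and the synthesis of ubiquinone and dolichol. Most enzymes of this route, and many that make and desaturate fatty acids, are transcribed under the control of the SREBP factors, which SREBF1 and SREBF2 encode. When sterols are plentiful, INSIG proteins hold the SREBPs and their escort SCAP in the endoplasmic reticulum. When sterols run short, SCAP carries the SREBPs to the Golgi, where they are cleaved, and the released factors enter the nucleus and raise the transcription of their targets, INSIG1 among them. Growing leukemia cells draw on both pathways for new membrane.

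Markers fixed for the 2 cell types that the libraries could hold were read first. The myeloid markers PTPRC, CD33, SPI1 and LAPTM5 were present in every library, MPO was low, at no more than 7.03 TPM, and the 8 myeloid markers summed to between 1349 and 1479 TPM in the control and TCP libraries and to between 2328 and 2614 TPM in the palbociclib and combination libraries. LAPTM5 made up most of the latter sum, at 570.2 and 571 TPM in control and 1319 to 1531 TPM in the 4 libraries with palbociclib, whereas FLT3 was lower there, at 221 TPM or more in control and 62.6 to 94.8 TPM with palbociclib. By the test described below, 5 of the 8 myeloid markers rose and 1, FLT3, fell under palbociclib, where 14.8% of all tested genes rose and 30.2% fell. Under the combination 6 rose and FLT3 fell, where 15.9% of all tested genes rose and 37.6% fell. The myeloid marker ANPEP, which did not pass under palbociclib, was at 2.00 and 5.24 TPM in control and 12.7 and 17.5 with both. Its palbociclib replicates 1 and 2 were far apart, at 5.27 and 21.9 TPM. The 12 stromal markers summed to 2.24 and 8.54 TPM in the control libraries, 2.32 and 8.13 with TCP, 7.24 and 98.5 with palbociclib, and 12.5 and 20.6 with both. POSTN was at 0 in all 8 libraries and LUM did not exceed 0.193 TPM. Palbociclib replicate 2 therefore stood apart in its stromal sum, with COL1A1 at 22.2 TPM, and the members' median under palbociclib is also given without it. In bulk RNA, fewer cells of a type and less RNA per cell cannot be told apart. The 10 most abundant genes took 9.12 to 9.67% of the TPM in the control and TCP libraries and 14.0 to 15.8% in the others, which lowers the TPM of what remains. TPM keep no read counts, so sequencing depth is unknown.

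The proximal promoters of 5 members are printed here, because SREBPs act there together with factors that bind CCAAT and GC boxes, and because these 5 span the range from the largest decrease to no call. Each is the stretch of 250 bases upstream of the annotated start in the RefSeq promoter table, build GRCh38.p14, read 5′ to 3′ on the strand of the gene. Capitals mark the sterol regulatory element TCACNCCAC, the CCAAT box CCAAT and the GC box GGGCGG, each searched on both strands. The stretches are SCD at chr10:100346983-100347232 on the plus strand, HMGCS1 at chr5:43313413-43313662 on the minus strand, INSIG1 at chr7:155297628-155297877 on the plus strand, SREBF2 at chr22:41832855-41833104 on the plus strand, and NSDHL at chrX:152830813-152831062 on the plus strand.
SCD: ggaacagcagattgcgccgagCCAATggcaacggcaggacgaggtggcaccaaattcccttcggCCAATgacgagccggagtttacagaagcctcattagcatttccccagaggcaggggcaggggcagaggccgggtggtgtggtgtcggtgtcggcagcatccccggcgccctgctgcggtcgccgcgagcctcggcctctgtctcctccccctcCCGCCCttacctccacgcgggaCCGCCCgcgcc
HMGCS1: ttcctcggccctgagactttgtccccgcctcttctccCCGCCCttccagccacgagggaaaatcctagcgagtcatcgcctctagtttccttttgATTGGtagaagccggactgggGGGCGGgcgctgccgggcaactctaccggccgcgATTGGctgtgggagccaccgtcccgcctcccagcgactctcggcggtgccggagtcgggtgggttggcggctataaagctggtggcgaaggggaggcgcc
INSIG1: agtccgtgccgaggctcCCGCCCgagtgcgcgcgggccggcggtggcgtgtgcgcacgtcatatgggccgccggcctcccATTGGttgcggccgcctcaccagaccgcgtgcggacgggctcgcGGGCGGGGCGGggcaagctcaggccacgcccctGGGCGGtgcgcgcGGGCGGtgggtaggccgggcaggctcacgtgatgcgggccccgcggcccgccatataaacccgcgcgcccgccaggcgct
SREBF2: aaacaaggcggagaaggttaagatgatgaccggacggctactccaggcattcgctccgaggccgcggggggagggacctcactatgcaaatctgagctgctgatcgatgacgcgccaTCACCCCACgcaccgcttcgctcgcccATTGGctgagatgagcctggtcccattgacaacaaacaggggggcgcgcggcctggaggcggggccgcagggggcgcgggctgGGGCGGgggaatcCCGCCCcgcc
NSDHL: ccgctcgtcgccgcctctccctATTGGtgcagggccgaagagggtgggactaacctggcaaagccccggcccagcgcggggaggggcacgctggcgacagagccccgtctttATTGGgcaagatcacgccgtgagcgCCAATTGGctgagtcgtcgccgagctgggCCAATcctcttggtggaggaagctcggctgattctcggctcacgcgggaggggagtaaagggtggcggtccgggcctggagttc

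The promoter table held windows for 29 of the 33 members, 43 windows in all, and SQLE, ACAT2, FDFT1 and FASN were not among them. A CCAAT box was found in 22 of the 29 members (75.9%), against 39.7% of the 27305 genes of the whole table and 42.8% of the tested genes that had a window. A GC box was found in 28 of 29 (96.6%), against 48.3% of all genes of the table and 74.9% of tested genes. The sterol regulatory element in this spelling was found only in SREBF2 among the members with a window (3.45%), against 1.39% of all genes, and the other 28 hold no match to these letters in the window searched. The CCAAT box was present in 17 of the 22 members with a window that passed the test under the combination and in 5 of the 7 that did not. NSDHL had 5 CCAAT box matches in the stretch printed above, counting the palindrome CCAATTGG once on each strand, and SCD and HMGCS1 had 2 each. A match is a description of the letters and not a bound site.

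Differences were tested with limma on log2(TPM + 1) over all 14151 genes, and a gene passed where its Benjamini-Hochberg adjusted p was below 0.05. Genes that changed at least 2-fold, a log2 fold change of 1 or more in size, with an adjusted p below 0.01 are called DEG, after the thresholds of the study. Because 1 is added before the logarithm is taken, fold changes of genes at a few TPM come out smaller than the ratio of their TPM. The 3 comparisons against control share the 2 control libraries, so that their values are set side by side and are not independent. With 2 against 2 libraries, the smallest p that permuting them exactly can give for 1 gene is 0.333.

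The first question was whether either molecule alone, or the combination, changed these genes relative to control. Under palbociclib 26 of the 33 members fell and none rose, while 30.2% of all tested genes passed in the lower direction and 14.8% in the higher. Under the combination 26 members also fell and none rose, against 37.6% of all tested genes lower. Under TCP alone none of the 33 passed by limma, against 0.431% of all tested genes in either direction, and 1 member, FADS1, had an unadjusted p below 0.05, as did 8.77% of all tested genes. The median log2 fold change of the members was -0.73 under palbociclib and -0.79 under the combination, where all tested genes had medians of -0.16 and -0.22. Under TCP these medians were -0.13 and -0.04.

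The log2 fold change was below 0 for 31 members under each of these treatments, against 62.1% of all tested genes under palbociclib and 64.9% under the combination. The decreases reached every role. Of the 8 mevalonate and isoprenoid enzymes, 7 fell under palbociclib and 8 under the combination. Of the 11 squalene and sterol enzymes, 8 fell under each treatment. Of the 5 genes of SREBP control and sterol transport, 3 fell under each. Of the 9 fatty acid and lipid enzymes, 8 fell under palbociclib and 7 under the combination. DEG numbered 7 of 33 under palbociclib, against 4.56% of all tested genes in the lower direction, and 8 of 33 under the combination, against 7.82%. The 7 were SCD, FADS2, HMGCS1, INSIG1, SQLE, HSD17B7 and CYP51A1, and FDPS was the eighth under the combination.

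**Figure D1:**
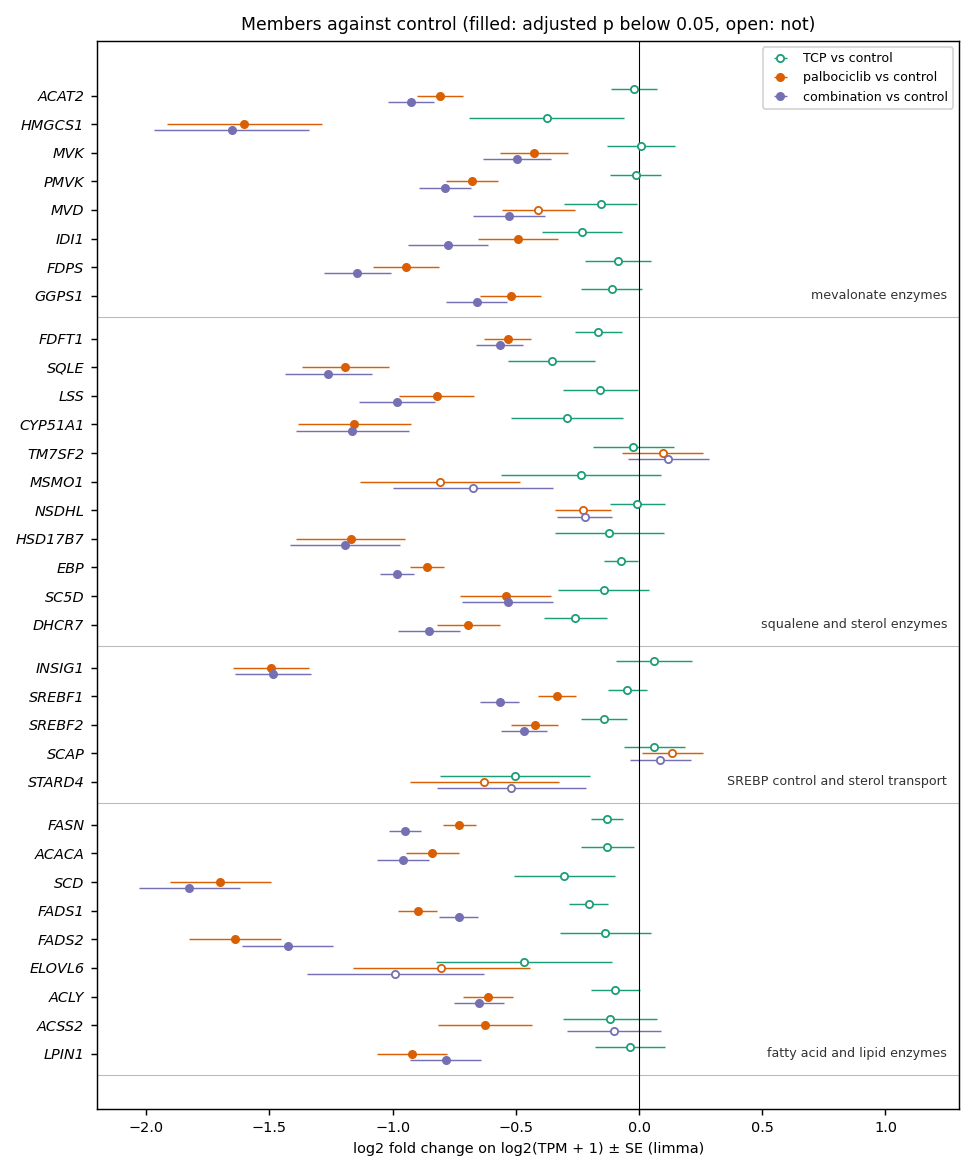
Log2 fold change of each of the 33 members against control on log2(TPM + 1), with the limma standard error as bars, for TCP, palbociclib and the combination, ordered by role; filled points have an adjusted p below 0.05. The palbociclib and combination points lie left of 0 for 31 of 33 members each, and the TCP points are open for all 33.

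The calls were also read on another scaling. When each library was divided by the median of its ratios to the mean library, taken as a geometric mean, the median over all tested genes moved from -0.16 to -0.00982 under palbociclib and from -0.22 to -0.0119 under the combination, and the members' medians were -0.56 and -0.56. On that scaling 21 members passed under palbociclib and 22 under the combination, all lower, against 20% and 23.4% of all tested genes. Among the genes called, the share of higher calls over all tested genes moved with this scaling from 32.8 to 50.3% under palbociclib and from 29.8 to 50.1% under the combination, while no member was called higher in either. The calls lost were MVK, IDI1, SC5D, SREBF1 and ACSS2 under palbociclib, and MVK, MVD, SC5D and SREBF2 under the combination.

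Summed over the 33 members, the expression was 5135 and 4528 TPM in the control libraries, 4836 and 3920 with TCP, 2635 and 2358 with palbociclib, and 2471 and 2273 with both. The palbociclib and combination libraries were all below the lowest of the control and TCP libraries, and the TCP libraries overlapped the control libraries. In shares, the members took 0.514 and 0.453% of all TPM in the control libraries and 0.247 and 0.227% under the combination. The 9 fatty acid and lipid enzymes summed to 1918 and 1738 TPM in the control libraries and to 839 and 738 TPM under the combination. The 11 squalene and sterol enzymes went from 1008 and 858 TPM to 524 and 488 TPM in the same groups.

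**Figure D2:**
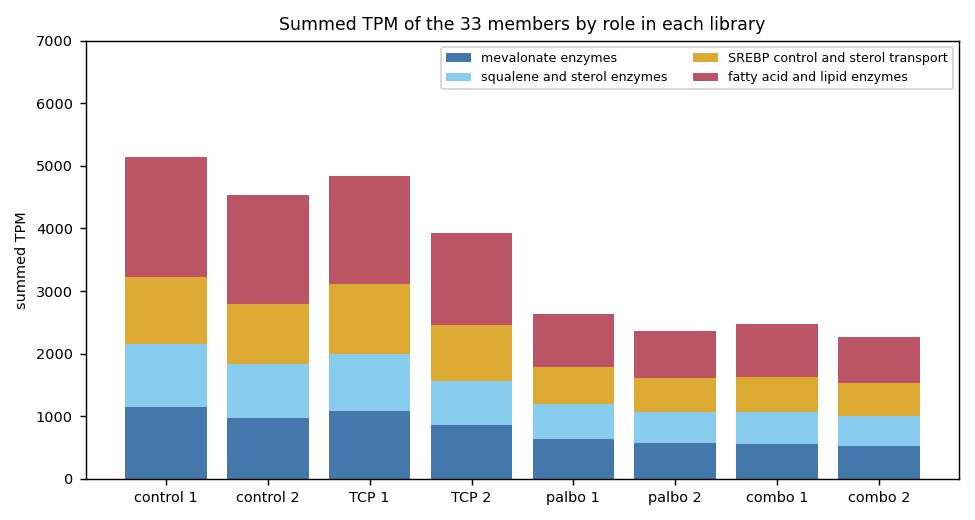
Summed TPM of the 33 members in each of the 8 libraries, stacked by role. The 4 libraries with palbociclib, alone or in the combination, reach 2273 to 2635 TPM, and the 4 without it reach 3920 to 5135 TPM.

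HMGCS1, the synthase that makes HMG-CoA, had the largest decrease among the mevalonate enzymes. It stood at 184 and 132 TPM in control replicates 1 and 2, 172 and 83.5 with TCP, 52.6 and 48.6 with palbociclib, and 51.2 and 46.6 with both. The 4 libraries with palbociclib were close together and below all others, while the TCP libraries spanned a range wider than that of the control libraries. The log2 fold change was -1.60 ± 0.31 (SE, n = 2) under palbociclib (limma, adjusted p = 0.00628) and -1.65 ± 0.31 under the combination (limma, adjusted p = 0.00427), a 3.04-fold and a 3.14-fold decrease. Its gene lies at chr5:43287572-43313614 on the minus strand of GRCh37, where its exons overlap a gene that was not tested on the opposite strand over 2125 bases.

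ACAT2, the cytosolic thiolase that makes acetoacetyl-CoA at the entry of the pathway, was at 280.4 and 269 TPM in control, 283 and 259 with TCP, 169 and 145 with palbociclib, and 147 and 141 with both. Its exons overlap those of TCP1 on the opposite strand over 454 bases, and the strand setting of the counting is not given. The log2 fold changes were -0.81 under palbociclib and -0.93 under the combination. MVK, mevalonate kinase, was at 19.4 to 23.7 TPM in control and 14.6 to 15.2 under the combination, and it fell by 0.43 and 0.49 on the log2 scale. PMVK, phosphomevalonate kinase, was even between the control libraries, at 42.0 and 41.9 TPM, against 37.8 and 45.6 with TCP, 26.5 and 25.2 with palbociclib, and 24.5 and 23.3 with both. It fell by 0.68 and 0.79, with no overlap between the libraries with and without palbociclib.

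MVD, which decarboxylates mevalonate diphosphate, was at 63.5 and 52.3 TPM in control, 45.0 and 41.4 under palbociclib, and 39.5 and 39.8 under the combination. It fell under the combination by 0.53 (limma, adjusted p = 0.0207), and under palbociclib its log2 fold change of -0.41 did not pass (limma, adjusted p = 0.0588), although it did with the replicate number as a block (adjusted p = 0.0158). IDI1, the isopentenyl diphosphate isomerase, was at 259 and 212 TPM in control, 234 and 170.4 with TCP, 176 and 158 with palbociclib, and 143 and 131 with both. Its libraries descended in that order with overlap between control and TCP and between TCP and palbociclib, and it fell by 0.49 under palbociclib (limma, adjusted p = 0.0453) and by 0.78 under the combination (limma, adjusted p = 0.00662).

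FDPS, which makes farnesyl diphosphate at the branch point of the pathway, was at 255 and 211 TPM in control, 242 and 197 with TCP, 129 and 112 with palbociclib, and 106 and 103 with both. The libraries with palbociclib lay well below the others, and the 2 combination libraries lay just below the 2 palbociclib libraries. The log2 fold change was -0.95 ± 0.13 under palbociclib (limma, adjusted p = 0.00173) and -1.14 ± 0.13 under the combination (limma, adjusted p = 0.000541). GGPS1, which makes geranylgeranyl diphosphate, was lower at 39.9 and 34.6 TPM in control, 36.9 and 31.9 with TCP, 27.8 and 23.5 with palbociclib, and 22.9 and 23.5 with both. It fell by 0.52 and 0.66.

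At the entry to the sterols, SQLE, the squalene epoxidase, was at 280.2 and 234 TPM in control, 236 and 169 with TCP, 120.5 and 103 with palbociclib, and 114 and 99.4 with both. TCP replicate 1 lay within the control range and TCP replicate 2 below it. SQLE fell by 1.19 ± 0.18 under palbociclib (limma, adjusted p = 0.00202) and by 1.26 ± 0.18 under the combination (limma, adjusted p = 0.00114). FDFT1, squalene synthase, was at 133 to 149 TPM in control and at 93.4 to 101 TPM in the 4 libraries with palbociclib, with log2 fold changes of -0.53 and -0.57.

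LSS, which closes squalene epoxide into lanosterol, was at 54.3 and 44.0 TPM in control, 49.8 and 38.4 with TCP, 28.8 and 25.8 with palbociclib, and 25.3 and 23.2 with both. CYP51A1, the lanosterol demethylase, was at 101 and 75.8 TPM in control, 91.0 and 55.9 with TCP, 40.1 and 37.5 with palbociclib, and 40.1 and 37.1 with both. HSD17B7, a ketoreductase of sterol demethylation, was at 14.9 and 11.8 TPM in control, 14.6 and 9.96 with TCP, 6.29 and 4.48 with palbociclib, and 5.60 and 4.88 with both. For all 3 the palbociclib libraries lay below every control and TCP library and were close to those of the combination. LSS fell by 0.82 and 0.98, CYP51A1 by 1.16 under both treatments, and HSD17B7 by 1.17 and 1.19. HSD17B7 has a pseudogene of similar sequence, HSD17B7P2, and whether the counting divided reads between them was not tested. CYP51A1 exons overlap an annotated gene on the same strand over 1685 bases. That gene was not among those tested, and the part of this overlap in the result was not tested.

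EBP, a sterol isomerase, was the most even of the sterol enzymes between replicates, at 148 and 149 TPM in control, 139 and 143 with TCP, 84.1 and 78.5 with palbociclib, and 75.3 and 74.0 with both. Its log2 fold change of -0.98 ± 0.07 under the combination had the smallest error of these enzymes (limma, adjusted p = 7.32e-05). DHCR7, a reductase of the last steps to cholesterol, was at 93.1 and 83.0 TPM in control, 83.5 and 64.3 with TCP, 55.1 and 52.9 with palbociclib, and 48.3 and 48.2 with both. It fell by 0.69 and 0.85. SC5D, a sterol desaturase, was near the threshold, with a log2 fold change of -0.54 under palbociclib (limma, adjusted p = 0.0496) and -0.53 under the combination (limma, adjusted p = 0.0454).

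The remaining sterol enzymes, TM7SF2, MSMO1 and NSDHL, did not pass in any comparison against control. TM7SF2, a sterol reductase, overlapped between the groups, at 27.2 to 37.7 TPM in control and 32.8 to 35.9 TPM with palbociclib, alone or in the combination. MSMO1, the sterol methyl oxidase, was at 76.7 and 53.4 TPM in control, 76.4 and 38.4 with TCP, 39.9 and 32.9 with palbociclib, and 45.1 and 35.1 with both. Its replicates were far apart in the control and TCP cells, and TCP replicate 2 lay within the range of the libraries with palbociclib. The log2 fold changes were -0.81 (limma, adjusted p = 0.0814) and -0.67 (limma, adjusted p = 0.121), and with the replicate number as a block they passed (adjusted p = 0.00708 and 0.0122). NSDHL, a dehydrogenase of sterol demethylation, was at 28.0 to 32.2 TPM in control and 24.2 to 26.8 TPM with palbociclib, with log2 fold changes of -0.23 and -0.22.

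Among the regulators, INSIG1, which holds the SREBPs back and is itself their target, was at 553 and 498 TPM in control, 632 and 473 with TCP, 197 and 175 with palbociclib, and 203 and 172 with both. The TCP libraries lay on either side of the control libraries, and the libraries with palbociclib were far below. INSIG1 fell by 1.49 ± 0.15 under palbociclib (limma, adjusted p = 0.000519) and by 1.49 ± 0.15 under the combination (limma, adjusted p = 0.000321), a 2.82-fold and a 2.80-fold decrease. The gene lies at chr7:155089486-155101945 on the plus strand of GRCh37.

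SREBF1 was at 205 and 189 TPM in control, 194 and 187 with TCP, 163 and 149 with palbociclib, and 136 and 129 with both, and SREBF1 exons overlap those of RAI1 on the opposite strand. The 4 groups descended in this order with overlap only between control and TCP. SREBF1 fell by 0.33 under palbociclib (limma, adjusted p = 0.0131) and by 0.57 under the combination (limma, adjusted p = 0.00114). SREBF2 was at 194 to 218 TPM in control and at 147 to 154 TPM in the 4 libraries with palbociclib, with log2 fold changes of -0.42 and -0.47, both of which passed. The mRNA of the factors themselves thus fell less than that of HMGCS1, INSIG1 or SCD, although the difference between genes was not tested.

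SCAP, the sterol-sensing escort of the SREBPs, did not pass, at 42.7 and 47.0 TPM in control and 47.7 and 50.9 under palbociclib, and its log2 fold change was 0.13 with a 95% interval from -0.16 to 0.43. It was the 1 member whose palbociclib libraries both lay above the control libraries, as did 26.5% of all tested genes. Both lay below for 31 members under palbociclib, against 49.7% of all tested genes, and for 30 under the combination, against 54.2%. STARD4, a carrier of cholesterol between membranes, was at 44.0 and 32.2 TPM in control, 37.0 and 18.6 with TCP, 26.5 and 21.8 with palbociclib, and 27.8 and 24.3 with both. TCP replicate 2 was the lowest of the 8 libraries. The log2 fold changes of -0.63 (limma, adjusted p = 0.133) and -0.52 (limma, adjusted p = 0.190) did not pass, and with the replicate number as a block they did (adjusted p = 0.0257 and 0.0445).

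SCD, the desaturase that makes monounsaturated fatty acids, was the most abundant member and had the largest decrease. It was at 801 and 682 TPM in control, 695 and 516 with TCP, 257 and 201 with palbociclib, and 241 and 179.6 with both. The libraries with palbociclib held less than any without it, and TCP replicate 2 lay below both control libraries. The log2 fold change was -1.70 ± 0.21 under palbociclib (limma, adjusted p = 0.000921) and -1.83 ± 0.21 under the combination (limma, adjusted p = 0.000441), a 3.25-fold and a 3.54-fold decrease. The gene lies at chr10:102106990-102124583 on the plus strand of GRCh37.

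FADS2 and FADS1, the desaturases of polyunsaturated fatty acids, are neighbours on chromosome 11 whose exons overlap on opposite strands over 165 bases. FADS2 also shares 49 exonic bases with FEN1 on the same strand. FADS2 was at 313 and 264 TPM in control, 287 and 237 with TCP, 107 and 77.9 with palbociclib, and 117 and 96.0 with both. FADS1 was at 189 and 180.0 TPM in control, 166 and 154 with TCP, 104 and 93.6 with palbociclib, and 110.0 and 111 with both. The group means of both were lowest under palbociclib alone, where the libraries of FADS2 overlapped those of the combination. FADS2 fell by 1.64 under palbociclib and by 1.43 under the combination, and FADS1 by 0.90 and 0.73. Both TCP libraries of FADS1 were below both control libraries, with a log2 fold change of -0.21 that did not pass (limma, adjusted p = 0.517).

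FASN, the fatty acid synthase, was at 287 and 308 TPM in control, 271 and 272 with TCP, 178 and 179.9 with palbociclib, and 155 and 152 with both. The 4 groups did not overlap, and the replicates were close in each. FASN fell by 0.73 ± 0.07 under palbociclib (limma, adjusted p = 0.000328) and by 0.95 ± 0.07 under the combination (limma, adjusted p = 7.10e-05). ACACA, the carboxylase that makes malonyl-CoA for FASN, was at 32.4 and 37.5 TPM in control, 30.9 and 32.7 with TCP, 19.4 and 18.7 with palbociclib, and 18.6 and 16.4 with both, and it fell by 0.84 and 0.96. ACLY, which makes cytosolic acetyl-CoA from citrate, was at 229.9 and 212 TPM in control, 214 and 199 with TCP, 154 and 134 with palbociclib, and 148 and 133 with both.

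ACLY fell by 0.61 under palbociclib and by 0.65 under the combination, and its control and TCP libraries overlapped. LPIN1, a phosphatidate phosphatase that makes diacylglycerol, was at 12.9 and 12.8 TPM in control, 14.0 and 11.1 with TCP, 6.61 and 6.02 with palbociclib, and 7.69 and 6.42 with both, and it fell by 0.92 and 0.79. ELOVL6, the elongase of palmitate, was the least expressed member, at 1.97 and 4.03 TPM in control and 0.706 and 1.23 under the combination. Its replicates differed in every group, its log2 fold change of -0.99 did not pass (limma, adjusted p = 0.0520), and with the replicate number as a block it did (adjusted p = 0.00452). The same held under palbociclib, where its log2 fold change was -0.80 (limma, adjusted p = 0.109, and adjusted p = 0.0123 with the block).

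**Figure D3:**
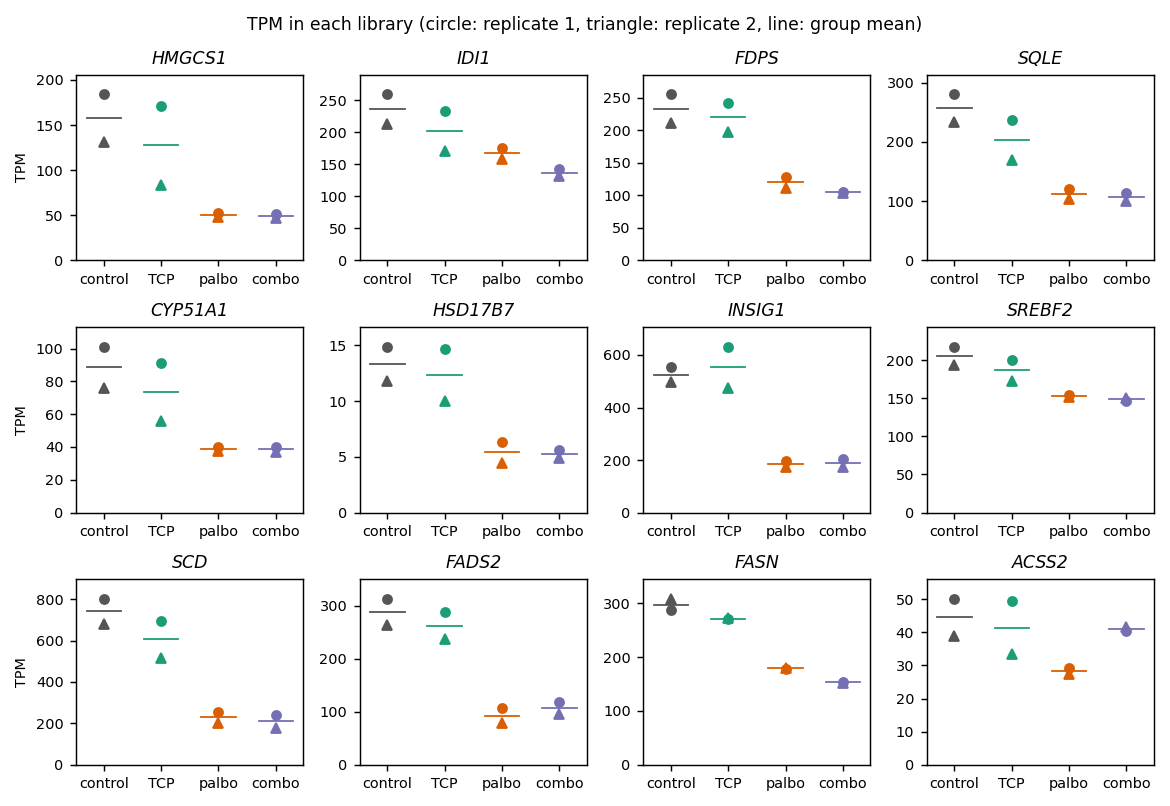
TPM of 12 members in each library by group, with circles for replicate 1, triangles for replicate 2 and a line at the group mean. In 11 of the panels the palbociclib and combination libraries lie below the control libraries, and in the ACSS2 panel the combination libraries, at 40.5 and 41.6 TPM, lie between the 2 control libraries.

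ACSS2, which makes acetyl-CoA from acetate, was the 1 member that passed under palbociclib but not under the combination, while MVD was the 1 that did the reverse. It was at 50.1 and 38.9 TPM in control, 49.3 and 33.4 with TCP, 29.1 and 27.5 with palbociclib, and 40.5 and 41.6 with both. The combination libraries lay within the control range and above both palbociclib libraries. ACSS2 fell by 0.63 ± 0.19 under palbociclib (limma, adjusted p = 0.0333), and under the combination its log2 fold change was -0.10 (limma, adjusted p = 0.673). The combination minus palbociclib difference was 0.52, with a 95% interval from 0.07 to 0.97, and did not pass over all genes (limma, adjusted p = 0.221).

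The second question was whether TCP changed these genes when palbociclib was present. Between the combination and palbociclib alone none of the 33 members passed by limma, against 3.49% of all tested genes in either direction, and 3 had an unadjusted p below 0.05, namely SREBF1, FASN and ACSS2, as did 17.5% of all tested genes. The members' median difference was -0.05, against -0.07 for all tested genes. Both combination libraries lay below both palbociclib libraries for 13 members, a share close to the 37.2% of all tested genes, and above them for 2, FADS1 and ACSS2, where 16.6% of all genes did so. For FASN the difference was -0.22 with a 95% interval from -0.37 to -0.07 (limma, adjusted p = 0.142). For SREBF1 it was -0.23 (limma, adjusted p = 0.189), which passed with the replicate number as a block (adjusted p = 0.0459). For SCD the interval ran from -0.61 to 0.36 and for HMGCS1 from -0.79 to 0.69, and both intervals hold differences in either direction.

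Whether the effect of TCP depended on palbociclib was read from the interaction of the 2 drugs. None of the 33 members passed, nor did any of the 14151 genes, by limma, and 904 genes had an unadjusted p below 0.05 (6.39%), FADS1 and ACSS2 among them. The interaction was 0.37 for FADS1 (limma, adjusted p = 0.575) and 0.64 for ACSS2 (limma, adjusted p = 0.778). The median over members was 0.06, against -0.03 over all tested genes.

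Between the combination and TCP alone 24 members fell and none rose, against 33.8% of all tested genes lower, and 5 were DEG, against 6.7%. These were INSIG1, SCD, FADS2, HSD17B7 and FDPS. The median log2 fold change was -0.55 for the members and -0.18 for all tested genes. MVD and SC5D did not pass, and with the replicate number as a block they did (adjusted p = 0.0207 and 0.0152). With 1 library left out, the members' median was -0.77 without TCP replicate 2 and -0.50 without TCP replicate 1.

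Under TCP alone 30 of the 33 log2 fold changes were below 0, where 61.4% of all tested genes were. EBP, FASN and FADS1 had both TCP libraries below both control libraries, which is 3 of 33 members against 22.3% of all tested genes. The median over members moved with single libraries of both groups. It was -0.0057 without TCP replicate 2 and -0.26 without TCP replicate 1. It was -0.029 without control replicate 1 and -0.23 without control replicate 2. In TCP replicate 2 HMGCS1 was 83.5 TPM, STARD4 18.6 TPM and CYP51A1 55.9 TPM.

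Differences between replicates ran mostly in 1 direction among the members. Replicate 2 was lower than replicate 1 for 28 of 33 members in control, 27 with TCP, 28 with palbociclib and 25 with both. Over all tested genes replicate 2 was lower for 49.7, 57.2, 56.2 and 52.5% in the same order. The members' median difference was -0.19 in control, -0.30 with TCP, -0.12 with palbociclib and -0.07 with both, where the median over all tested genes ranged from -0.05 to 0. The widest gap was that of HMGCS1 under TCP, at -1.03. These gaps enter the error of the tests. The palbociclib decreases of the 7 DEG exceeded the gap between the replicates of either group. The 7 were chosen by those same tests and by the size of the change, so this follows largely from the choice. Without palbociclib replicate 2, the library with the high stromal sum, the median over members under palbociclib was -0.67. Without control replicate 1 that median was also -0.67.

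**Figure D4:**
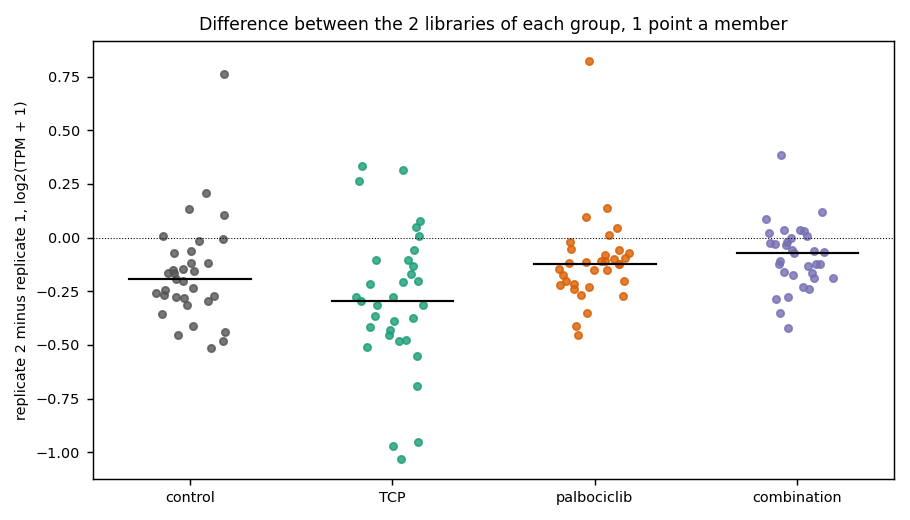
Replicate 2 minus replicate 1 on log2(TPM + 1) in each group, 1 point per member, with a bar at the median. The medians are -0.19, -0.30, -0.12 and -0.07 for control, TCP, palbociclib and the combination, and most points lie below 0 in every group.

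The other genes around these pathways were read from 5 lists of 58 genes. Of 10 enzymes of the isoprenoid branch, which make ubiquinone, dolichol and prenylated proteins, 4 fell under palbociclib and 6 under the combination, and none rose. The 6 fell by 0.55 to 0.88. These are 40% and 60% of the list, against 30.2% and 37.6% of all tested genes in the lower direction. Of 8 genes that process or degrade SREBPs and their partners, 2 fell and 1 rose under palbociclib, and 2 fell and 2 rose under the combination, so that 25% of the list fell in each, below the shares of all tested genes. Of 13 tested genes of fatty acid elongation, desaturation and supply, out of 16 listed, 5 fell and 1 rose under palbociclib, and 4 fell and 1 rose under the combination. The falling shares, 38.5% and 30.8%, lie above and below those of all tested genes.

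Among genes of LXR signalling and of sterol efflux or storage, more rose than fell. Of 10 such genes, 5 rose and none fell under palbociclib, and 5 rose and 1 fell under the combination, against 14.8% and 15.9% of all tested genes in the higher direction. ABCG1 and CYP27A1, counted as rising in each comparison, reached 1 TPM only in libraries with palbociclib. They could be tested only because of those libraries, so their rises add no support to these counts. The gene that fell was MYLIP, at 54.4 and 60.9 TPM in control and 41.0 and 38.8 under the combination, so the list did not move as a whole. ABCA1, the exporter of cholesterol to lipid-poor particles, was at 7.01 and 7.76 TPM in control, 7.77 and 7.91 with TCP, 22.1 and 21.9 with palbociclib, and 24.3 and 22.5 with both, and it rose by 1.46 and 1.54. ABCG1, its partner in efflux, was at 0.202 and 0.265 TPM in control, 1.31 and 1.38 under palbociclib, and 1.78 and 2.60 under the combination. CYP27A1, a sterol hydroxylase, was at 0.477 and 0.417 TPM in control, 2.24 and 1.82 under palbociclib, and 3.80 and 1.72 under the combination. Both passed under palbociclib and under the combination, with log2 fold changes of 1.36 and 1.32 under the combination, at levels of a few TPM. Neither reached 1 TPM in any control or TCP library, so these calls are not independent of the filter. The myeloid marker sum, carried mostly by LAPTM5, was higher in the same 4 libraries while FLT3 was lower, and the part of these shifts in the results was not tested.

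Of 14 genes of glycerolipid synthesis and acyl-CoA activation, 4 fell and 4 rose under palbociclib, and 5 fell and 2 rose under the combination. The falling shares of 28.6% and 35.7% were close to the 30.2% and 37.6% of all tested genes. ACSL5, an acyl-CoA synthetase, was at 45.0 and 42.2 TPM in control, 41.6 and 34.2 with TCP, 20.9 and 15.6 with palbociclib, and 15.1 and 13.4 with both, and it fell by 1.22 and 1.55. GPAM, the first acyltransferase of triglyceride synthesis, was at 6.05 TPM in both control libraries and at 2.42 and 2.15 TPM under the combination, where it fell by 1.10. DGAT2, which makes triglycerides from diacylglycerol, was at 15.1 and 11.0 TPM in control, 10.9 and 7.70 with TCP, 30.3 and 30.9 with palbociclib, and 26.5 and 26.3 with both, and it rose by 1.18 and 0.98. Within this list the libraries with palbociclib were thus lower for ACSL5 and GPAM and higher for DGAT2.

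**Figure D5:**
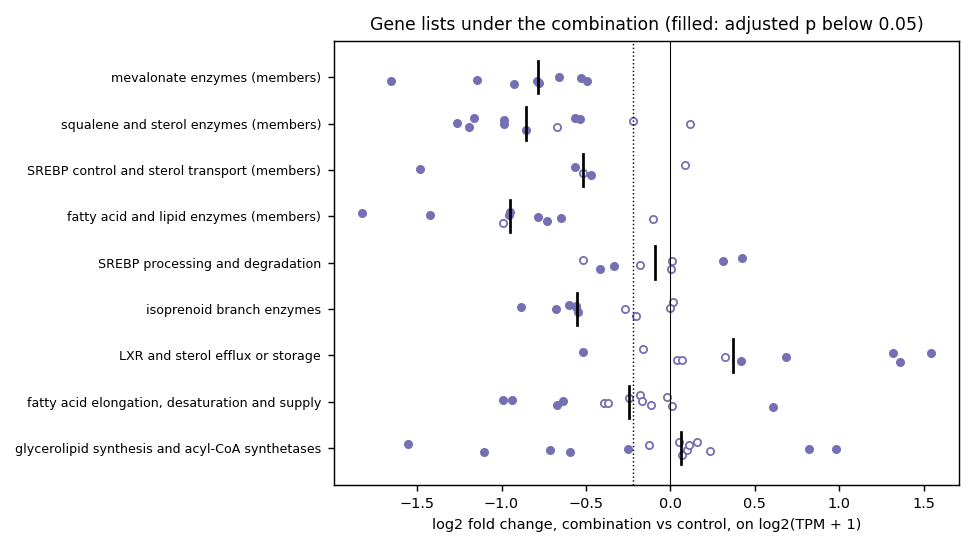
Log2 fold change of the combination against control on log2(TPM + 1) for the 4 groups of members and the 5 other lists, 1 point per gene, filled where the adjusted p is below 0.05, with a bar at each list's median and a dotted line at the median of all tested genes (-0.22). The bars of the member groups lie between -0.95 and -0.52, and that of the LXR and efflux list lies at 0.37.

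ERLIN1, a protein of the endoplasmic reticulum linked to the restraint of SREBPs, was the 1 gene of these lists that passed under TCP, and it is named here after its values were seen. It was at 154 and 153 TPM in control, 103 and 103 with TCP, 298 and 289 with palbociclib, and 214 and 199 with both. The 4 groups did not overlap. It fell by 0.57 under TCP (limma, adjusted p = 0.0259), rose by 0.93 under palbociclib (limma, adjusted p = 0.000155), and was 0.51 lower in the combination than under palbociclib on the log2 scale (limma, adjusted p = 0.0128). The interaction was 0.06 and did not pass (limma, adjusted p = 0.990).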

How the data were processed

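RNA-seq was measured in 8 libraries of MV4-11 cells, 2 in each of 4 groups, and each library was assigned to its group from the labels. Per the submitters' processing notes and the study's methods, the authors mapped reads to GRCh37 (hg19) with subread-align and counted them with featureCounts 1.6.4, and the deposited values are TPM, which are corrected for gene length and sum to one total in every library. The gene annotation, gene lengths and strand setting of the counting are not given in the sources used here. TPM keep no depth, so intervals that rest on read counts could not be computed.

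The fit used limma 3.58.1 in R 4.3.3 on log2(TPM + 1), with 1 coefficient per group over all 8 libraries, 4 residual degrees of freedom and a mean-variance trend, for the 14151 of 26364 genes that reached 1 TPM in 2 or more libraries. P-values were adjusted by Benjamini-Hochberg over all of these. The script was tested on simulated data. The members and gene lists were chosen with earlier results of these data known. All 33 members are named, with values in every library for the 20 with the largest change under the combination among those that passed. Of the other lists up to 3 DEG each are named, together with ERLIN1 and MYLIP, which were not DEG. Alternatives were another pseudocount, other filters, other scalings, the groups compared alone, no trend and each library left out.

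The main fit, which gave the calls above, did not use the replicate numbers. They were entered as a block in an alternative run. This was done because the deviations of same-numbered libraries correlated across genes in all 6 pairs of groups (0.169 to 0.491). Neither the labels nor the methods say what the numbers share, and values with the replicate block are printed where they change a call. Coordinates of genes and exon overlaps are from a GENCODE annotation of GRCh37, which need not be the annotation of the counting. Promoter sequences are from a RefSeq table of GRCh38.p14 with windows for 29 members.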

Additional observations from a re-analysis of the deposited data

Results flagged for a closer look

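The FADS1 libraries moved in opposite directions with TCP in the absence and in the presence of palbociclib, a difference that did not pass its test. Both TCP libraries lay below both control libraries, with a log2 fold change of -0.21, and both combination libraries lay above both palbociclib libraries, with a log2 difference of 0.17. The interaction was 0.37 and did not pass over all tested genes (limma, adjusted p = 0.575). FADS1 and FADS2 share exonic bases on opposite strands, and the part of this overlap in the result was not tested.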

How the results depend on the processing

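With 2 libraries a group and no read counts, small differences between the combination and palbociclib are poorly resolved. No called value changed direction under any alternative run, while 150 values without a call changed sign. The member values counted next include TCP against control, the combination against palbociclib and the interaction. No member had passed there in the main fit, so no call could be lost. For the members one by one, 3002 of 3129 values kept their side of the threshold, 96 lost a call and 31 gained one. With the DEG thresholds 7 members were called under palbociclib, 8 under the combination and 5 between the combination and TCP. With the replicate block, 30 members passed under palbociclib, 29 under the combination and 26 between the combination and TCP, all lower, where 37.1%, 42.9% and 40% of all tested genes did, and 1 (SREBF1) passed between the combination and palbociclib. The members' median under palbociclib was -0.71 with a mean of at least 5 TPM, -0.62 with quantile normalization and -0.56 with median-ratio scaling. Under the combination it was -0.81 with a pseudocount of 0.1, -0.62 with quantile normalization and -0.56 with median-ratio scaling. Between the combination and palbociclib it was -0.00388 with quantile normalization and 0.015 with median-ratio scaling, and between the combination and TCP -0.41 with median-ratio scaling. With quantile normalization 45.4% of all calls under palbociclib and 44.3% under the combination were higher, against 32.8 and 29.8% as deposited. The cause of these shifts was not tested.

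With each library left out in turn, the median over members ranged from -0.77 to -0.67 under palbociclib and -0.84 to -0.74 under the combination. It ranged from -0.26 to -0.0057 under TCP and from -0.11 to -0.011 between the combination and palbociclib. Between the combination and TCP it ranged from -0.77 to -0.50, and for the interaction from -0.070 to 0.18. Counts of members that passed are not given run by run, since 1 group then held 1 library.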
